A study of Mus musculus with 9 samples.

Results

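DNA repair genes were described across the 3 groups of the study as 47 members of 34650 gene names on the array, chosen by gene name as a list of repair genes and sorted here by pathway: homologous recombination (7), damage signaling kinases (4), Fanconi anemia genes (4), end joining (5), mismatch repair (3), nucleotide excision repair (7), base excision repair (13), translesion synthesis (3) and direct reversal (1). They are covered by 66 of 55681 gene probes. All 47 had a probe that exceeded background by the scanner's test on 1 array or more, and so all 47 passed the filter on low values, as did 24101 gene names. RNA came from primary microglia of fms-EGFP mice, in which microglia carry a fluorescent reporter, prepared from pups at postnatal day 0 to 1 and grown for about 14 d with 5 ng/ml GM-CSF in every group. Control microglia received no phagocytic stimulus and are labelled as time 0. No unfed microglia were kept for 3 h or 24 h, so feeding and time in culture cannot be told apart. Ph3h and Ph24h microglia were fed for 3 h or 24 h with SH-SY5Y cells, a human neuroblastoma line, which had been made apoptotic with 3 µM staurosporine for 4 h. There were 3 arrays in each group, described as independent experiments, and no group of microglia was exposed to living cells or to another cargo.

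Cells repair DNA by routes that differ with the lesion. Base excision repair removes small damaged bases with glycosylases, cuts the strand and refills it, nucleotide excision repair cuts out bulky lesions, and mismatch repair corrects copying errors. Double-strand breaks are joined end to end or copied from a sister chromatid by homologous recombination, the latter mainly in cells that replicate their DNA, and kinases such as ATM and ATR signal the damage. Microglia, the macrophages of the brain, make reactive oxygen species when they phagocytose, and GM-CSF promotes their proliferation in culture.

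Levels below are log2 intensities of each gene's brightest probe minus the 75th percentile of that array, so that 0 is the 75th percentile, and differences are between group means on this log2 scale, ± the SE of the limma fit. Levels of different probes cannot be set against each other. Intensities at the 75th percentile were 356 to 473 on the control arrays, 185 to 211 at 3 h and 156 to 161 at 24 h, and 25618 to 29286 probes per array were well above background. All 11 microglial markers were well above background on every control array. Their summed linear level was 1051 to 1105 in control, 1475 to 1622 at 3 h and 887 to 916 at 24 h. Such sums, here and below, mostly follow their brightest probes, here Csf1r (mean control level 8.61), and can hide changes of single markers. Counted singly, 6 of the 11 were called up and 3 down after 3 h. After 24 h, 2 stood above control and 7 below it. Among the latter, Cx3cr1 differed by -4.56 ± 0.18 (adjusted p = 1.1e-06), and P2ry12 exceeded background on no 24 h array. Of 15 markers of SH-SY5Y cells, 12 were measured, of which 9 rose and 1 fell by 3 h and 10 rose by 24 h. Their summed level was 1.28 to 1.47 in control, 171 to 188 at 3 h and 209 to 224 at 24 h. Phox2a, Dbh and Ret exceeded background on no array. The arrays carry mouse probes, the cargo was human, and the part of cargo RNA in the differences below was not tested. In these cultures fewer cells of a type and less RNA per cell cannot be told apart.

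Transcripts of repair genes fell more often than they rose after feeding. At 3 h, 26 of the 47 repair genes were lower than control and 7 higher, whereas 25.9% of all genes measured were lower and 27.9% higher. At 24 h, 31 were lower and 7 higher, against 33.2% lower and 29.9% higher over all genes; the 7 became 4 without control replicate 3 and, in other fits, 4 with the authors' table and 4 with slide 1 alone. Between 3 h and 24 h, 19 fell and 11 rose (24.0% and 20.4% of all genes). Without Atm, whose probes were called in opposite directions for that step, 18 fell and 11 rose. The median difference of the 47 genes was -0.29 at 3 h and -0.54 at 24 h, beside 0.07 and 0.01 over all genes. With arrays scaled on their median instead, the median of all genes was -0.18 at 3 h and -0.50 at 24 h, and 30 repair genes were lower and 3 higher at 3 h and 41 lower and 3 higher at 24 h. The 3 h and 24 h comparisons share their control arrays. These shares over all genes are also the measure for the counts of single pathways and of further repair genes below.

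**Figure D1:**
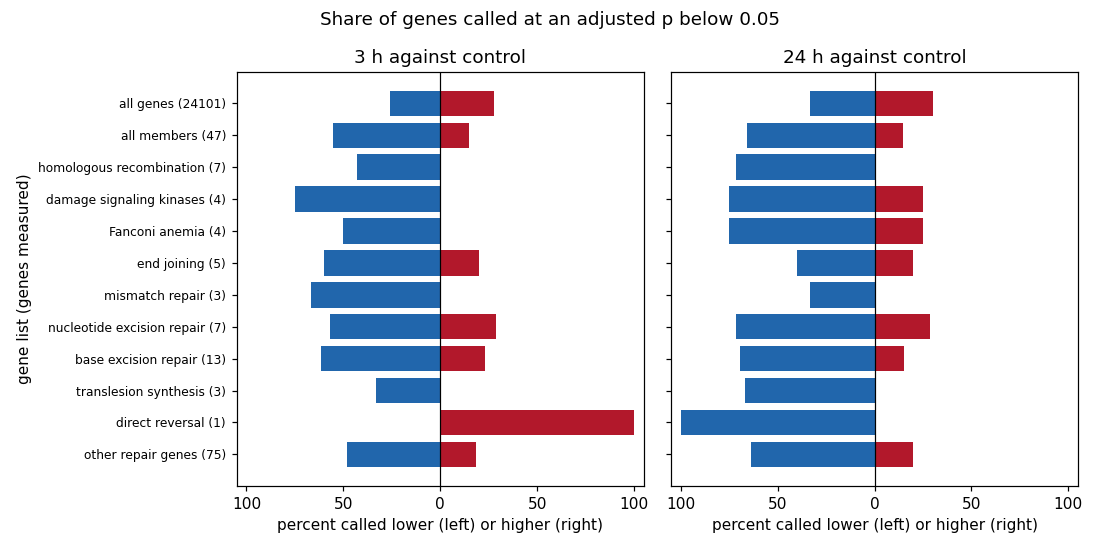
Percent of genes called higher (right) or lower (left) than control at 3 h and at 24 h, for all genes measured, the 47 repair genes, each pathway and 75 further repair genes, with the number of genes in brackets. Repair genes were called lower more often than all genes at both times (26 and 31 of 47).

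**Figure D2:**
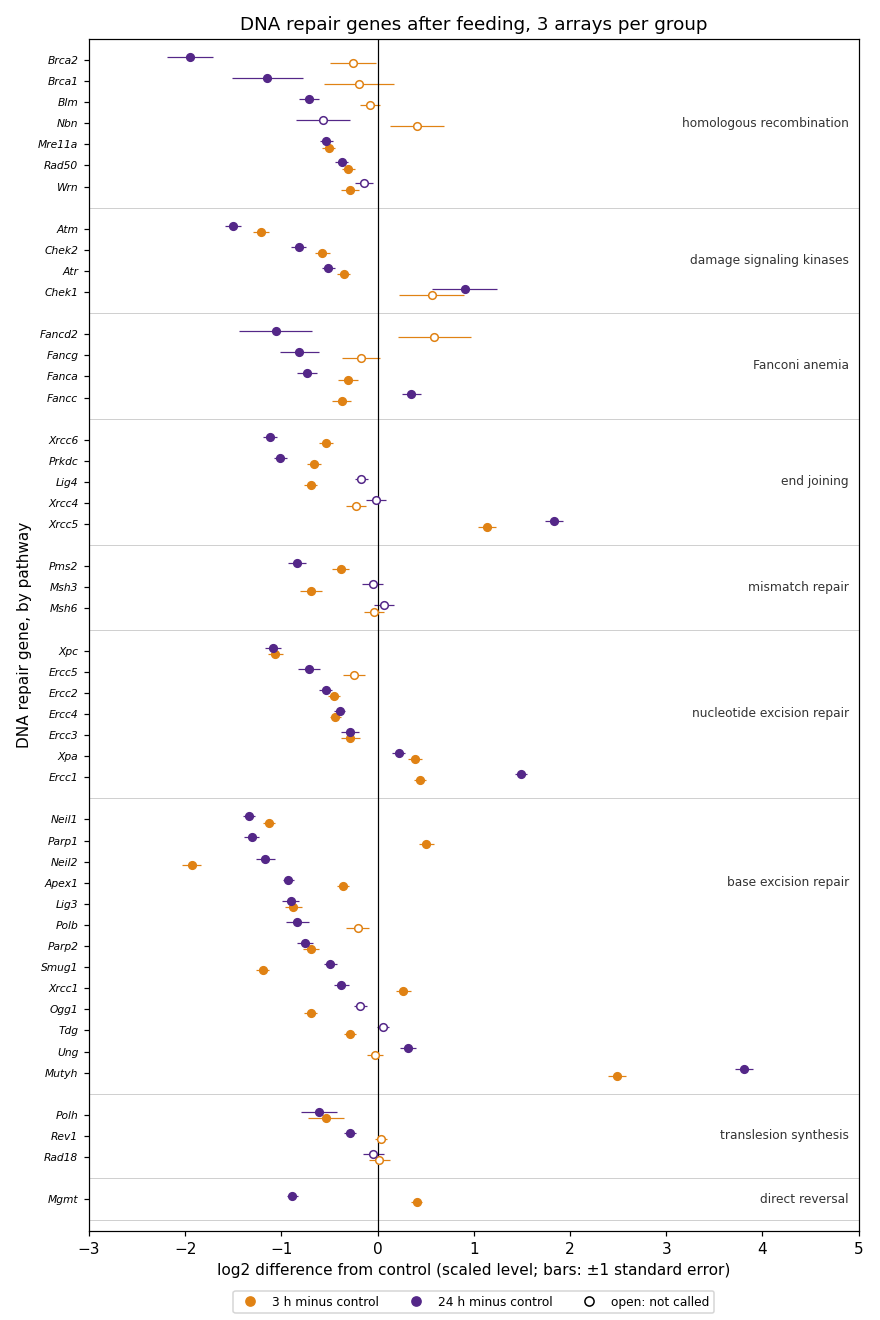
Log2 difference from control at 3 h (orange) and 24 h (purple) for each of the 47 repair genes, by pathway. Bars are 1 SE, 3 arrays per group; filled points passed an adjusted p of 0.05. Xrcc5 and Ercc1 lie to the right at 24 h and Brca2 to the left; the point of Mutyh, at 3.81, is that of 1 of its probes, and the other was called lower (-0.74).

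The probes of Mutyh, Xrcc5, Xrcc6, Ercc1 and Parp1 are shown here because the values turn on them: other probes or partner genes went the opposite way, or the direction turned with time. Each is given as the sense strand in mm9, with no capitals, since no part of it was singled out. The pair of Mutyh probes lies at chr4:116490399-116490540 (60 bases of probe over 142 of genome) and chr4:116491926-116491985. The Xrcc5 probe lies at chr1:72430014-72430320, the Xrcc6 probe at chr15:81870452-81870511, the Ercc1 probe at chr7:19935530-19935589 and the Parp1 probe at chr1:182530341-182530639, all on the plus strand.
Mutyh, probe A_66_P106275: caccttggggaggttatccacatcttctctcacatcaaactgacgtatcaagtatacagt
Mutyh, probe A_55_P1978122: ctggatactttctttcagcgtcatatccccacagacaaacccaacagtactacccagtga
Xrcc5, probe A_51_P201661: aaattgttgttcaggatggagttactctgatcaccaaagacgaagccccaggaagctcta
Xrcc6, probe A_66_P108567: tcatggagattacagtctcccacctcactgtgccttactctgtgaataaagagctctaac
Ercc1, probe A_66_P132232: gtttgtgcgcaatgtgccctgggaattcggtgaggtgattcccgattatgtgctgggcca
Parp1, probe A_51_P314277: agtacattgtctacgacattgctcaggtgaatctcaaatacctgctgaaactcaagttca

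Homologous recombination genes fell or did not pass the test. At 3 h, 3 of 7 were lower (Rad50, Mre11a and Wrn), beside 25.9% of all genes. At 24 h, 5 of 7 were lower (Brca1, Brca2, Rad50, Mre11a and Blm), beside 33.2%. None was higher at either time. Brca2, a tumor suppressor needed for recombination at broken ends, had levels of -0.98, -1.08 and -1.11 on the control arrays, -1.03, -1.66 and -1.24 at 3 h and -2.65, -3.50 and -2.87 at 24 h. The 24 h arrays lay below all others, while 3 h overlapped control. Its difference was -0.26 ± 0.24 (adjusted p = 0.41) at 3 h and -1.95 ± 0.24 (adjusted p = 0.00027) at 24 h, and it fell by 1.69 ± 0.24 from 3 h to 24 h (adjusted p = 0.00093).

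Blm, a helicase that resolves recombination intermediates, read -0.30, -0.18 and -0.25 on the control arrays, -0.37, -0.33 and -0.28 at 3 h and -0.79, -1.18 and -0.91 at 24 h. Again 3 h overlapped control and 24 h lay lower, with differences of -0.08 ± 0.10 (adjusted p = 0.54) at 3 h and -0.71 ± 0.10 (adjusted p = 0.00058) at 24 h. Brca1, a ubiquitin ligase subunit that directs break resection, was near background: its probe was well above background on 2 control arrays and on no fed array. Its levels were -3.73, -4.70 and -5.33 on the control arrays, -4.88, -4.67 and -4.78 at 3 h and -5.44, -5.92 and -5.84 at 24 h, and the adjusted p was 0.027 at 24 h. No fold is given for it, and its call was lost without control replicate 2, Ph24h replicate 2 or Ph24h replicate 3 (adjusted p up to 0.076) and under 2 of 11 other settings (up to 0.064).

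Mre11a, Rad50 and Nbn encode the nuclease complex that detects breaks, and the first 2 were lower at both times. Mre11a, its nuclease, read 2.14, 2.08 and 2.03 on the control arrays, 1.63, 1.48 and 1.63 at 3 h and 1.52, 1.62 and 1.52 at 24 h. It was lower on every fed array than on every control array, with differences of -0.51 ± 0.07 (adjusted p = 0.00051) at 3 h and -0.53 ± 0.07 (adjusted p = 0.00031) at 24 h. Rad50, the ATPase of the complex, was also lower, with differences of -0.30 ± 0.07 (adjusted p = 0.006) at 3 h and -0.37 ± 0.07 (adjusted p = 0.0019) at 24 h. Nbn, the subunit that recruits ATM, was not called at either time, with levels of 0.76, 0.71 and 0.85 on the control arrays, 0.79, 0.84 and 1.93 at 3 h and 0.21, 0.21 and 0.20 at 24 h. A lone 3 h array stood apart from the other two. Without Ph3h replicate 3, which also enters the shared estimate of spread, Nbn was called lower at 24 h (adjusted p = 0.00027 against 0.12 with all arrays). Wrn, a helicase and nuclease, was called lower at 3 h only (-0.29 ± 0.09, adjusted p = 0.032), a call lost without control replicate 2, control replicate 3 or Ph3h replicate 2 (adjusted p up to 0.10) and under 4 of 12 other settings (up to 0.12).

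Among 12 further recombination genes, 2 rose and 4 fell by 3 h, and 2 rose and 8 fell by 24 h, with medians of -0.12 and -0.94. Against that direction, Rad54l, a DNA motor protein of this pathway, was higher, with differences of 4.62 ± 0.16 (adjusted p = 8.4e-07) at 3 h and 4.80 ± 0.16 (adjusted p = 5e-07) at 24 h.

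Of the damage signaling kinases, Atm, Atr and Chek2 were lower at both times and Chek1 was higher at 24 h. Over all genes, 25.9% were lower at 3 h, and 33.2% lower and 29.9% higher at 24 h. Atm, the kinase that answers double-strand breaks, read -0.50, -0.49 and -0.50 on the control arrays, -1.70, -1.73 and -1.70 at 3 h and -1.95, -2.17 and -1.88 at 24 h, with all fed arrays more than 1 log2 unit below control. The difference was -1.21 ± 0.08 (adjusted p = 1.6e-05) at 3 h and -1.50 ± 0.08 (adjusted p = 4.4e-06) at 24 h. A dimmer Atm probe also fell, by 0.75 at 3 h and 0.36 at 24 h on the log2 scale. From 3 h to 24 h the brighter probe was called lower and the dimmer one higher, so no direction is given for that step.

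Chek2, the checkpoint kinase downstream of ATM, read 0.93, 0.91 and 0.78 on the control arrays, 0.19, 0.44 and 0.27 at 3 h and 0.08, 0.05 and 0.02 at 24 h. Its fed arrays did not overlap control, and it had differences of -0.58 ± 0.08 (adjusted p = 0.00065) at 3 h and -0.82 ± 0.08 (adjusted p = 8e-05) at 24 h. Atr, the kinase of stalled replication forks, read 2.37, 2.33 and 2.25 on the control arrays, 2.06, 1.89 and 1.94 at 3 h and 1.86, 1.83 and 1.72 at 24 h, a change of -0.35 ± 0.07 (adjusted p = 0.0039) at 3 h and -0.51 ± 0.07 (adjusted p = 0.00047) at 24 h. The 3 h call of Atr was lost with the mean over its probes (adjusted p = 0.087).

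Chek1, the checkpoint kinase downstream of ATR, went the other way from a low level. It read -4.04, -4.48 and -4.02 on the control arrays, -3.25, -4.39 and -3.21 at 3 h and -3.63, -3.18 and -3.01 at 24 h, and its probe was well above background on 3, 2 and 2 arrays of the groups. The lowest scaled level well above background also moved up, from -5.01 to -4.59 on the control arrays to -3.84 to -3.70 at 24 h. The 24 h arrays lay above control and the difference was 0.91 ± 0.34 (adjusted p = 0.048). This call rested on few arrays: it was lost in 6 of 9 fits that left out 1 array, those without control replicate 1, 2 or 3, Ph3h replicate 1, or Ph24h replicate 2 or 3 (adjusted p up to 0.14). It was also lost under 6 of 12 other settings (adjusted p up to 0.50). The difference was then 0.447 with quantile normalization, 0.399 with median scaling, 0.444 with the authors' table and 0.0651 with normexp. Of 11 further signaling genes, 2 rose and 6 fell by 3 h, and 3 rose and 8 fell by 24 h. Hus1, part of the sliding clamp that activates ATR, was higher at 24 h (1.07 ± 0.14, adjusted p = 0.00045). Clspn, an adaptor between ATR and Chek1, passed the test as lower at 24 h (adjusted p = 0.0058) but exceeded background on no fed array.

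Of the Fanconi anemia genes, which act on crosslinked strands, 2 of 4 were lower at 3 h, and 3 lower and 1 higher at 24 h. The shares over all genes were 25.9% lower at 3 h, and 33.2% lower and 29.9% higher at 24 h. Fanca, a core complex subunit, read 0.61, 0.81 and 0.61 on the control arrays, 0.35, 0.53 and 0.24 at 3 h and 0.08, -0.14 and -0.11 at 24 h. Its levels stepped down from control to 3 h to 24 h without overlap, with differences of -0.30 ± 0.10 (adjusted p = 0.042) at 3 h and -0.73 ± 0.10 (adjusted p = 0.0006) at 24 h. The 3 h call was lost in 7 of 9 fits that left out 1 array, all but those without Ph3h replicate 2 or Ph24h replicate 1 (adjusted p up to 0.13), and under 5 of 12 other settings (up to 0.33), the replicate block among them (0.052). With the mean over its 2 probes, of which the dimmer exceeded background on 1 array, the 24 h difference was -0.45 and its call was lost (adjusted p = 0.20).

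Fancc, another core subunit, turned direction. Its levels were -0.75, -0.74 and -0.89 on the control arrays, -1.25, -1.22 and -1.02 at 3 h and -0.57, -0.30 and -0.46 at 24 h, so that the 3 h arrays lay below control and the 24 h arrays above it. It differed by -0.37 ± 0.10 (adjusted p = 0.014) at 3 h, was higher by 0.35 ± 0.10 (adjusted p = 0.015) at 24 h, and rose by 0.73 ± 0.10 (adjusted p = 0.00072) between them. The 24 h call was lost without control replicate 3 (adjusted p = 0.052) and with quantile normalization, median scaling, the authors' table, the mean over its probes and slide 1 alone, and a second, dimmer Fancc probe was not called in either comparison with control (0.28 and -0.35). With median scaling Fancc lay below control at 24 h by 0.157, without passing the test.

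Fancg, also of the core complex, read -1.55, -1.76 and -1.71 on the control arrays, -2.16, -1.65 and -1.72 at 3 h and -2.16, -2.86 and -2.43 at 24 h, overlapped control at 3 h and was lower at 24 h (-0.81 ± 0.20, adjusted p = 0.0093). Fancd2, the subunit that the core complex ubiquitinates, was well above background on 2 control arrays, 1 array at 3 h and none at 24 h. It read -5.25, -3.94 and -4.33 on the control arrays, -3.36, -4.35 and -4.06 at 3 h and -5.61, -5.82 and -5.29 at 24 h, with an adjusted p of 0.042 at 24 h and no fold given. That call was lost in 6 of 9 fits that left out 1 array, without control replicate 2 or 3, Ph3h replicate 3 or any of the Ph24h arrays (adjusted p up to 0.13), and under 5 of 11 other settings (up to 0.16). Among 10 further genes of this pathway 3 rose and 5 fell by 3 h, and 2 rose and 6 fell by 24 h. Fan1, a nuclease, and Brip1, a helicase, were higher at 24 h by 1.25 ± 0.17 (adjusted p = 0.00047) and 1.07 ± 0.14 (adjusted p = 0.00038).

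Of the 5 end joining genes, 3 were called lower and 1 higher at 3 h, and by 24 h calls stood at 2 in the lower direction against 1 in the other. Over all genes, 25.9% were lower and 27.9% higher at 3 h. The 24 h shares were 40% lower and 20% higher, beside 33.2% and 29.9% of all genes, so no direction of the pathway is read from them. Xrcc5 and Xrcc6 encode the subunits of the Ku heterodimer, the ring that caps broken ends. Xrcc5 read 1.47, 1.42 and 1.19 on the control arrays, 2.52, 2.45 and 2.51 at 3 h and 3.28, 3.24 and 3.07 at 24 h, rising from group to group without overlap, with differences of 1.14 ± 0.09 (adjusted p = 4.6e-05) at 3 h and 1.84 ± 0.09 (adjusted p = 3.4e-06) at 24 h. Xrcc6 read 3.49, 3.71 and 3.60 on the control arrays, 3.08, 2.97 and 3.13 at 3 h and 2.46, 2.49 and 2.49 at 24 h, falling from group to group without overlap, with differences of -0.54 ± 0.07 (adjusted p = 0.00058) at 3 h and -1.12 ± 0.07 (adjusted p = 1.2e-05) at 24 h. The probes of both are printed above, and each gene was read by 1 probe.

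Prkdc, the catalytic subunit of the DNA-dependent kinase that binds Ku, read -0.94, -1.02 and -0.97 on the control arrays, -1.65, -1.72 and -1.54 at 3 h and -1.90, -2.06 and -2.00 at 24 h. It fell from group to group without overlap, with differences of -0.66 ± 0.07 (adjusted p = 0.00016) at 3 h and -1.01 ± 0.07 (adjusted p = 1.5e-05) at 24 h. Lig4, the ligase that seals the ends, was lower at 3 h only (-0.70 ± 0.07, adjusted p = 0.00013) and rose by 0.53 ± 0.07 (adjusted p = 0.00065) from 3 h to 24 h. With median scaling the call for this rise of Lig4 was lost (adjusted p = 0.067). Xrcc4, its scaffold, was not called at either time (-0.22 and -0.02). Of 8 further end joining genes, 1 rose and 6 fell by 3 h, and 1 rose and 5 fell by 24 h. Polq, the polymerase of an alternative joining route, passed the test as lower at 24 h (adjusted p = 7.6e-05) and exceeded background on no 24 h array. Aptx, which cleans blocked ends, was lower, at -1.38 ± 0.10 (adjusted p = 1.7e-05).

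Of the mismatch repair genes, Msh3 and Pms2 were lower at 3 h and Pms2 alone at 24 h. That is 66.7% of the 3 genes at 3 h, beside 25.9% of all genes. At 24 h it is 33.3%, near the 33.2% of all genes. Pms2, the nicking subunit, read -0.12, -0.34 and -0.34 on the control arrays, -0.79, -0.63 and -0.53 at 3 h and -1.13, -1.13 and -1.06 at 24 h. It fell from group to group without overlap, with differences of -0.39 ± 0.09 (adjusted p = 0.0091) at 3 h and -0.84 ± 0.09 (adjusted p = 0.00014) at 24 h. Msh3, which recognises small loops, fell by 0.70 ± 0.11 at 3 h (adjusted p = 0.0015) and at 24 h stood at -0.05 from control. All 3 of its probes were lower at 3 h. Msh6, which recognises single mismatches, was not called (-0.04 at 3 h and 0.07 at 24 h). Among 4 further genes, 1 rose and 2 fell at each time. Pold1, the catalytic subunit of a replicative polymerase, was higher at 24 h by 1.46 ± 0.08 (adjusted p = 5.4e-06), and Pms1 was lower, at -0.90 ± 0.09 (adjusted p = 8.9e-05).

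In nucleotide excision repair, 4 of 7 genes were lower and 2 higher at 3 h, and 5 lower and 2 higher at 24 h. The shares over all genes were 25.9% lower and 27.9% higher at 3 h, and 33.2% and 29.9% at 24 h. Xpc, the sensor of distorted DNA, read 2.75, 2.64 and 2.63 on the control arrays, 1.61, 1.58 and 1.64 at 3 h and 1.52, 1.48 and 1.75 at 24 h. Both fed groups lay about 1 log2 unit under control and overlapped each other, with differences of -1.06 ± 0.08 (adjusted p = 3.4e-05) at 3 h and -1.09 ± 0.08 (adjusted p = 2.3e-05) at 24 h. Ercc2, a helicase of the transcription factor complex that opens the lesion, read 2.79, 2.86 and 2.95 on the control arrays, 2.48, 2.43 and 2.33 at 3 h and 2.34, 2.33 and 2.30 at 24 h, lower than control with differences of -0.45 ± 0.06 (adjusted p = 0.00078) at 3 h and -0.54 ± 0.06 (adjusted p = 0.00024) at 24 h.

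Ercc1 and Ercc4 encode the subunits of the nuclease that cuts on the upstream side of a lesion. Ercc1 read 1.57, 1.49 and 1.62 on the control arrays, 2.05, 1.97 and 1.97 at 3 h and 3.08, 3.10 and 2.97 at 24 h. It rose at each step without overlap, with differences of 0.44 ± 0.06 (adjusted p = 0.00077) at 3 h and 1.49 ± 0.06 (adjusted p = 1.4e-06) at 24 h, and by 1.05 ± 0.06 (adjusted p = 1.3e-05) from 3 h to 24 h. Under median scaling the 3 h call was lost (adjusted p = 0.10). Ercc4 was lower at both times, with differences of -0.44 ± 0.06 (adjusted p = 0.00053) at 3 h and -0.39 ± 0.06 (adjusted p = 0.00075) at 24 h. In the Ku ring and in this nuclease, then, 1 subunit gene was higher and its partner lower, as the plot of levels per array shows. Rad50 and Mre11a, also partners, were both lower. Over all genes, 29.9% were higher and 33.2% lower at 24 h. Xrcc5 and Ercc1 were each read by 1 probe, and the part of cargo RNA in their rise was not tested.

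Ercc5, the nuclease of the downstream side, read -0.24, -0.39 and -0.40 on the control arrays, -0.44, -0.66 and -0.68 at 3 h and -0.88, -1.03 and -1.27 at 24 h, and was called lower at 24 h only (-0.72 ± 0.12, adjusted p = 0.0011). With the mean over its probes, of which the dimmer was near background, the 24 h call was lost (adjusted p = 0.80). Xpa, which verifies the lesion, was higher with differences of 0.39 ± 0.07 (adjusted p = 0.0023) at 3 h and 0.22 ± 0.07 (adjusted p = 0.025) at 24 h. Its 24 h call was lost without control replicate 2 or 3 or Ph24h replicate 1 or 2 (adjusted p up to 0.079), with the mean over its probes and with slide 1 alone (up to 0.12). With median scaling its 3 h call was lost (adjusted p = 0.28) and it was called lower at 24 h (-0.287). Ercc3, the second helicase, was lower with differences of -0.28 ± 0.09 (adjusted p = 0.037) at 3 h and -0.28 ± 0.09 (adjusted p = 0.032) at 24 h. Its 24 h call was lost without control replicate 1 or 3 or Ph24h replicate 1 or 2 (adjusted p up to 0.096) and under 4 of 12 other settings (up to 0.13), and its 3 h call without any control array, Ph3h replicate 1 or 2 or Ph24h replicate 2 (adjusted p up to 0.11).

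Among 13 further genes of the pathway 2 rose and 5 fell by 3 h, and 1 rose and 8 fell by 24 h. Ercc6, the remodeller of stalled RNA polymerase, was lower with differences of -1.70 ± 0.10 (adjusted p = 1.1e-05) at 3 h and -2.14 ± 0.10 (adjusted p = 2.6e-06) at 24 h. Ddb2, a damage sensor, was lower at 24 h, at -0.86 ± 0.09 (adjusted p = 0.0001).

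**Figure D3:**
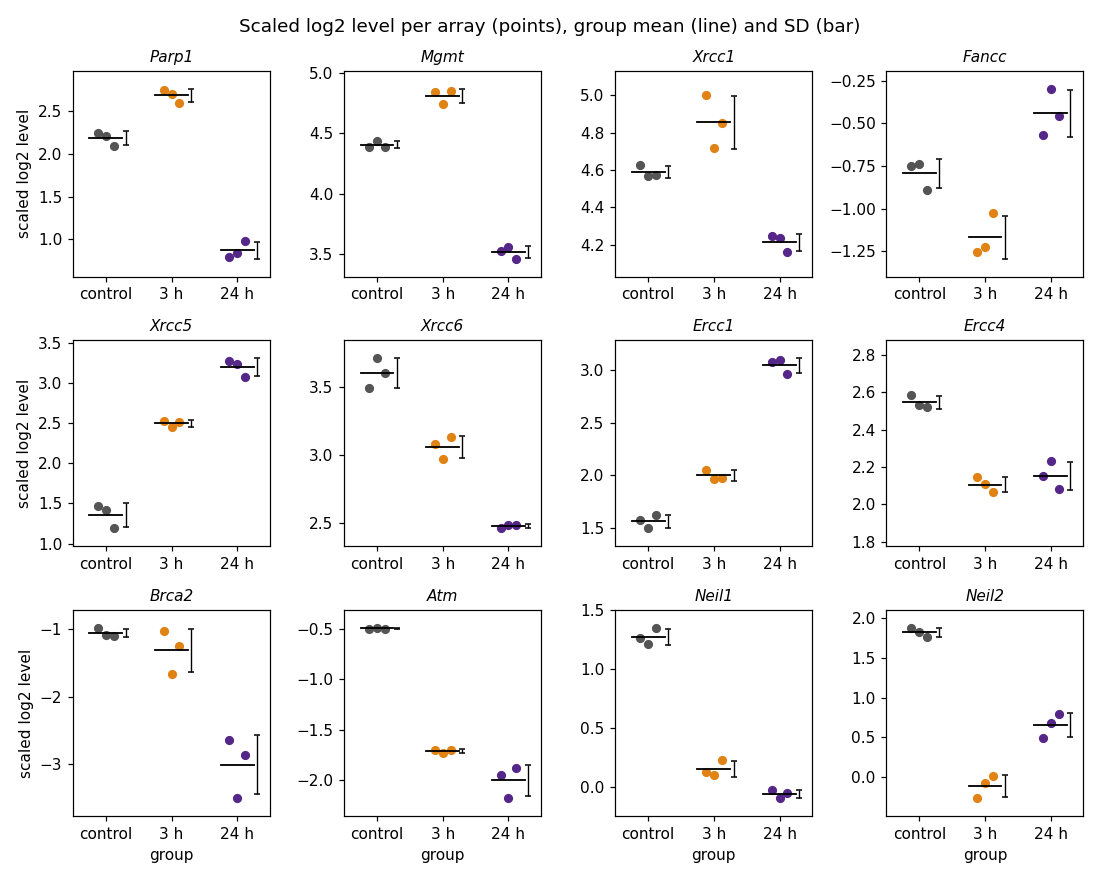
Scaled log2 level on each of the 9 arrays (points) with the group mean (line) and SD (bar) for 12 repair genes; each panel has its own vertical range, which does not start at 0. Parp1, Mgmt and Xrcc1 rose at 3 h and lay below control at 24 h. With median scaling the 3 h calls of Mgmt and Xrcc1 were lost. Fancc lay below control at 3 h and above it at 24 h (with median scaling it lay below control at 24 h as well). Xrcc5 and Ercc1 rose while Xrcc6 and Ercc4 fell.

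Base excision repair was the largest of the groups. Of its 13 genes, 8 were lower and 3 higher at 3 h, and 9 lower and 2 higher at 24 h. Over all genes, 25.9% were lower and 27.9% higher at 3 h, and 33.2% and 29.9% at 24 h. Without Mutyh and Tdg, whose probes were called in opposite directions, 7 were lower and 2 higher at 3 h. Without Mutyh, 9 were lower and only Ung, which has limits of its own, was called higher at 24 h. Neil1 and Neil2, glycosylases that remove oxidised bases, fell. Neil1 read 1.26, 1.21 and 1.35 on the control arrays, 0.12, 0.10 and 0.23 at 3 h and -0.03, -0.10 and -0.06 at 24 h, and both of its probes were lower at both times. The brighter had differences of -1.12 ± 0.06 (adjusted p = 7.1e-06) at 3 h and -1.34 ± 0.06 (adjusted p = 2.2e-06) at 24 h. Neil2 read 1.87, 1.82 and 1.76 on the control arrays, -0.26, -0.08 and 0.01 at 3 h and 0.49, 0.67 and 0.79 at 24 h. It was lowest at 3 h and partly returned, with differences of -1.93 ± 0.10 (adjusted p = 5.4e-06) at 3 h and -1.17 ± 0.10 (adjusted p = 4.6e-05) at 24 h and a rise of 0.77 ± 0.10 (adjusted p = 0.00065) between the times.

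The other glycosylases behaved in several ways. Smug1, which removes uracil, had the course of Neil2, with -1.19 ± 0.07 (adjusted p = 7.8e-06) at 3 h and -0.49 ± 0.07 (adjusted p = 0.00048) at 24 h. Ogg1, which removes oxidised guanine, was lower at 3 h only (-0.70 ± 0.07, adjusted p = 0.00014). Ung, another uracil glycosylase, was called higher at 24 h (0.32 ± 0.08, adjusted p = 0.011). Its 1 probe, at chr5:114588731-114588790 in mm9, ends in a run of 34 bases of GT repeat, of which the last 30 bases are shown with the repeat in capitals, because repeats of this kind occur in many transcripts.
Ung, last 30 bases of probe A_55_P2040878: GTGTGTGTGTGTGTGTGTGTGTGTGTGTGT
A CA or GT run of more than 7 bases was present in 1.55% of all probes measured, and the Ung value is given with that limit. Its call was lost with median scaling, normexp and the authors' table (adjusted p up to 0.17), and its sign turned with median scaling (-0.189).

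Mutyh, which removes adenine paired with oxidised guanine, cannot be given a direction. The probe that stood for it has the higher mean over all 9 arrays but was the dimmer on the control arrays, so that its rise decided the choice. On this probe, A_66_P106275, it read -3.13, -2.96 and -3.31 on the control arrays, -0.73, -0.58 and -0.65 at 3 h and 0.71, 0.66 and 0.65 at 24 h, with differences of 2.48 ± 0.09 (adjusted p = 1.2e-06) at 3 h and 3.81 ± 0.09 (adjusted p = 1.2e-07) at 24 h. The other probe, -1.29, -1.33 and -1.69 on the control arrays, read -2.83, -2.27 and -2.51 at 3 h and -2.21, -2.13 and -2.17 at 24 h. Its differences, from a fit over all probes rather than over genes, were -1.10 ± 0.16 (adjusted p = 0.00096) at 3 h and -0.74 ± 0.16 (adjusted p = 0.0056) at 24 h. All fed arrays lay above control on the first probe and below it on the other. The 2 probes are listed under different transcript records and lie within the same gene.

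Tdg, a thymine glycosylase that also takes part in DNA demethylation, had 4 probes, and 2 of them were called in opposite directions at 3 h. The brightest, A_55_P2107398, read 3.68, 3.62 and 3.72 on the control arrays, 3.45, 3.42 and 3.29 at 3 h and 3.70, 3.79 and 3.70 at 24 h, lower at 3 h, at -0.29 ± 0.07 (adjusted p = 0.0088). Probe A_55_P2044091 read -0.82, -0.91 and -1.06, then -0.50, -0.42 and -0.64 and then -0.12, -0.26 and -0.13, and was higher by 0.41 ± 0.09 (adjusted p = 0.0077) at 3 h and 0.76 ± 0.09 (adjusted p = 0.00031) at 24 h. Without the genes whose probes were called in opposite directions, 25 repair genes were lower and 6 higher at 3 h, and 31 lower and 6 higher at 24 h. Of 14 repair genes with several probes, 8 had the same call on all of them at 3 h and 6 at 24 h.

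**Figure D4:**
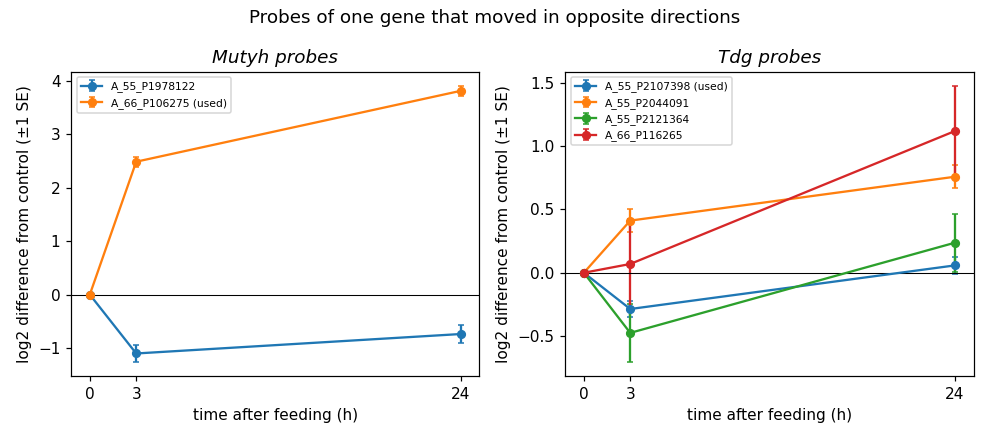
Log2 difference from control (0 h) at 3 h and 24 h for each probe of Mutyh (left) and Tdg (right), ± 1 SE, 3 arrays per group; lines join the points of 1 probe, and the vertical scales differ. The Mutyh probe used for the gene rose to 3.81 while the other stayed below 0.

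Downstream of the glycosylases, Parp1 turned direction. It encodes the enzyme that senses strand breaks and adds ADP-ribose chains. Parp1 read 2.25, 2.21 and 2.09 on the control arrays, 2.75, 2.71 and 2.60 at 3 h and 0.79, 0.84 and 0.98 at 24 h, so that the 3 h arrays lay above control and the 24 h arrays more than 1 log2 unit below it. It was higher by 0.50 ± 0.08 (adjusted p = 0.0012) at 3 h, differed by -1.31 ± 0.08 (adjusted p = 7.5e-06) at 24 h, and fell by 1.81 ± 0.08 in between (adjusted p = 3e-06). Parp2, its relative, was lower at both times with differences of -0.69 ± 0.08 (adjusted p = 0.0003) at 3 h and -0.76 ± 0.08 (adjusted p = 0.00014) at 24 h.

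Xrcc1, the scaffold that Parp1 products recruit, had a similar but smaller course. It read 4.63, 4.57 and 4.58 on the control arrays, 5.00, 4.72 and 4.85 at 3 h and 4.25, 4.23 and 4.16 at 24 h, a difference of 0.26 ± 0.08 (adjusted p = 0.023) at 3 h and -0.38 ± 0.08 (adjusted p = 0.0041) at 24 h. The 3 h rise was lost without control replicate 2 or 3 or Ph3h replicate 1 or 3 (adjusted p up to 0.069), and with quantile normalization, median scaling, normexp, the authors' table and slide 1 alone (adjusted p up to 0.88). Apex1, which cuts the abasic site, was lower with differences of -0.36 ± 0.06 (adjusted p = 0.0014) at 3 h and -0.93 ± 0.06 (adjusted p = 9.3e-06) at 24 h. Lig3, the ligase that binds Xrcc1, was lower with differences of -0.88 ± 0.09 (adjusted p = 0.00013) at 3 h and -0.90 ± 0.09 (adjusted p = 8.4e-05) at 24 h. A dimmer Lig3 probe changed less, by -0.31 at 3 h (limma adjusted p = 0.018) and -0.22 at 24 h, where it was not called (0.059). Polb, the gap-filling polymerase, was lower at 24 h only (-0.84 ± 0.12, adjusted p = 0.00058). Of 9 further base excision genes, 2 rose and 3 fell by 3 h, and 4 rose and 5 fell by 24 h. Nthl1, a glycosylase of oxidised pyrimidines, was higher at 24 h by 1.05 ± 0.11 (adjusted p = 0.00015). Neil3 was higher at 3 h by 1.09 ± 0.10 (adjusted p = 9e-05) and passed the test as lower at 24 h (adjusted p = 1.6e-05), where it exceeded background on no array.

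Translesion polymerases and Rad18 were lower or not called. Of these 3 genes, 1 was lower at 3 h and 2 at 24 h, beside 25.9% and 33.2% of all genes. Polh, which copies past ultraviolet lesions, read -1.88, -1.70 and -1.90 on the control arrays, -2.50, -2.04 and -2.55 at 3 h and -2.45, -2.74 and -2.12 at 24 h, lower with differences of -0.54 ± 0.19 (adjusted p = 0.045) at 3 h and -0.61 ± 0.19 (adjusted p = 0.024) at 24 h. The call at 24 h was lost without control replicate 1 or 2 or Ph24h replicate 1 or 2 (adjusted p up to 0.074) and with the replicate block (0.055). At 3 h it was lost without any control array, Ph3h replicate 1 or 3 or Ph24h replicate 1 (adjusted p up to 0.13) and under 3 of 12 other settings (up to 0.12). Rev1, the polymerase that recruits the others, read -0.59, -0.63 and -0.53 on the control arrays, -0.62, -0.47 and -0.56 at 3 h and -0.87, -0.85 and -0.88 at 24 h, and was lower at 24 h only (-0.29 ± 0.06, adjusted p = 0.0042). Rad18, the ligase that marks the clamp for them, was not called (0.02 and -0.05), and its brightest probe holds a CA or GT run of 14 bases. Of 6 further genes, 1 rose and 4 fell at each time. Poli and Polk, further polymerases of this kind, were lower at 24 h, at -1.68 ± 0.10 (adjusted p = 9.1e-06) and -0.90 ± 0.12 (adjusted p = 0.00048).

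Mgmt, the enzyme that takes methyl groups off guanine directly, also rose and then fell. It read 4.39, 4.44 and 4.38 on the control arrays, 4.84, 4.74 and 4.85 at 3 h and 3.53, 3.56 and 3.46 at 24 h, with no overlap between any of the groups. It was higher by 0.41 ± 0.06 (adjusted p = 0.00062) at 3 h, a call lost with median scaling (adjusted p = 0.16), and differed by -0.89 ± 0.06 (adjusted p = 9.8e-06) at 24 h. Alkbh3 and Alkbh2, dioxygenases that also reverse alkylation, were lower at 24 h, at -0.74 ± 0.07 (adjusted p = 5.8e-05) and -0.20 ± 0.05 (adjusted p = 0.0079).

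Over all pathways, 14 of 75 further repair genes rose and 36 fell by 3 h, and 15 rose and 48 fell by 24 h, with a median of -0.25 and -0.44. Genes of S phase and mitosis were set beside them. Of 13 measured, 10 were higher and none lower at 3 h (median 0.73), and 1 was higher and 12 lower at 24 h (median -1.13). Parp1, Mgmt and Xrcc1 were called higher at 3 h and lower at 24 h, as were 918 of all genes (6.38% of repair genes, beside 3.81%). Another 20 repair genes were called lower at both times (42.6%, beside 18.7% of all genes). A further 8 were called lower at 24 h and not called at 3 h (17%, beside 10.7%). The part of proliferation in the values of the repair genes was not tested.

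Parp1, Mgmt and Xrcc1 were called higher at 3 h and lower at 24 h. With median scaling the 3 h calls of Mgmt and Xrcc1 were lost. Promoters of Parp1, Mgmt and Xrcc1 are shown. They come from RefSeq in GRCm38.p6, another build than the probes, as the 250 bases before the gene start on the plus strand, at chr1:180568641-180568890 for Parp1, chr7:136894336-136894585 for Mgmt and chr7:24546449-24546698 for Xrcc1. Capitals mark matches, on either strand, of the E2F-type letters TTCCCGC and TTGGCGC, the CHR-type letters TTTGAA and CCAAT. Only Xrcc1 holds one here, a CCAAT on the minus strand.
Parp1: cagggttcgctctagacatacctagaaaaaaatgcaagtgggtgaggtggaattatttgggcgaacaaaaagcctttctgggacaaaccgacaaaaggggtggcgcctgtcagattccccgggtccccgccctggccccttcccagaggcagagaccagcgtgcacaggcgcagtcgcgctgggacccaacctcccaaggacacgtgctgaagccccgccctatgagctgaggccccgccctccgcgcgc
Mgmt: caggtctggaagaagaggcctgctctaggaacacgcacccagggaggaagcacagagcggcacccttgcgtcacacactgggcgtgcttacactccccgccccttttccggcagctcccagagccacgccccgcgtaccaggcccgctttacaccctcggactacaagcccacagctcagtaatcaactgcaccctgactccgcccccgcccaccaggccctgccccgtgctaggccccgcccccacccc
Xrcc1: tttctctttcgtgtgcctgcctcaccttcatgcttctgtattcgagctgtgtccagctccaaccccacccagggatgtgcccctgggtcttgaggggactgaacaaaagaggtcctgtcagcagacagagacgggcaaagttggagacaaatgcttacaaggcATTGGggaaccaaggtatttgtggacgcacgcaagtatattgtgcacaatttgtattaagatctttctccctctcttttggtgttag

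A promoter was listed for 38 of the 47 genes. In windows of 250 bases before to 50 after the start, E2F-type letters were present in 14 of 38 (36.8%), beside 6.9% of 27025 promoters in the table. CCAAT was present in 21 (55.3%, beside 37.9%) and the CHR-type letters in 1 (2.6%, beside 18.1%). The E2F-type letters were held by 10 of 24 promoters of genes lower at 24 h, 1 of 7 of genes higher and 3 of 7 of genes not called. That 1 is Chek1, whose call was lost in 6 of 9 fits that left out 1 array and under 6 of 12 other settings. Counted among the 7 higher is also Mutyh, whose other probe was called lower. Among recombination genes and kinases, the matches of Brca1, Brca2, Atm, Chek1 and Chek2 are printed with up to 10 bases on each side, the match in capitals and each on its gene's strand. The windows are chr11:101551918-101551944 for Brca1, chr5:150522443-150522469 for Brca2, chr9:53536640-53536666 for Atm, chr9:36726609-36726625 for Chek1 and chr5:110839821-110839847 for Chek2.
Brca1: ctagcgctagGCGCCAAgcggccggtt
Brca2: ttaggccacaGCGGGAAacagacacac
Atm: agagccggaaGCGGGAAggcgtgcgta
Chek1: gcaggttttgGCGGGAA
Chek2: gggattagccGCGGGAAaccaagacgt
A match of letters is not evidence of binding.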

How the data were processed

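RNA of 9 cultures was hybridised to one-color Agilent arrays with 60-mer mouse probes, 3 arrays per group. The authors made the deposited intensity values with Agilent Feature Extraction 10.7.3.1, whose processed signal is background-subtracted within an array and not normalized between arrays. The authors also deposited log2 values for 36655 probes from GeneSpring GX, with probes absent from every sample removed, each probe centered over the arrays; no source used here gives the scaling between arrays. Its array medians ran from -0.0712 to 0.0978.

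Spots flagged as non-uniform or outlying were dropped, spots of a probe were averaged as log2 intensities, and each array's 75th percentile over gene probes was subtracted; 56 probes had no usable spot on some array. A probe was kept if it exceeded background on any array, and the brightest stood for its gene. limma 3.58.1 in R 4.3.3 (with jsonlite 2.0.0) fitted group means on all 9 arrays, with Benjamini-Hochberg adjustment over 24101 genes and a threshold of 0.05. Values of second probes, and of the Tdg probes, come from a like fit over all 34381 probes measured, with the adjustment over probes. The methods used a regression on time, rebuilt here as an alternative; the main test compares groups, since members were described at each time. Below, "lost" means that the adjusted p no longer passed. The steps were tested on simulated data. The number of arrays limits precision.

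Members, pathways, further repair genes, markers and motifs were chosen with earlier results of these data known. All 47 members are named with their calls. Values on every array are given for up to 4 members per pathway with the largest absolute difference at 24 h among those called then, for members called in opposite directions at 3 h and 24 h, and for members whose probes were called in opposite directions. Of the further genes, up to 2 per pathway are given by the same measure, except 1 that is not reported here. Probe positions are those of the array files (mm9), with exons and untranslated regions not analysed here. All 47 symbols were found in RefSeq (GRCm38.p6), where 14 overlap another protein-coding gene. The labels and the methods name different RNA extraction kits.

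Markers of astrocytes, oligodendrocytes, neurons, fibroblasts and endothelial cells were also read. Their summed levels in control, Ph3h and Ph24h were 6.43 to 7.53, 10.8 to 13.2 and 4.48 to 4.80 for astrocytes, and 260 to 321, 413 to 471 and 206 to 240 for the oligodendrocyte lineage. They were 3.95 to 4.55, 11.3 to 15.4 and 13.9 to 15.5 for neurons, 0.850 to 1.60, 1.18 to 1.59 and 1.20 to 1.77 for fibroblasts and pericytes, and 7.40 to 10.6, 11.7 to 11.9 and 13.4 to 15.2 for endothelial cells.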

Additional observations from a re-analysis of the deposited data

Results flagged for a closer look

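The 4 genes Parp1, Mgmt, Xrcc1 and Fancc are listed because their differences from control at 3 h and 24 h had opposite calls and the 24 h arrays differed from the 3 h arrays by limma's test of that step. They are 8.51% of the 47 repair genes, beside 5.51% of all genes with opposite calls at 3 h and 24 h. With median scaling the 3 h calls of Mgmt and Xrcc1 and the 24 h call of Fancc were lost. The log2 difference of 24 h from 3 h was -1.81255 for Parp1 (adjusted p = 3e-06), -1.29205 for Mgmt (adjusted p = 3e-06), -0.641668 for Xrcc1 (adjusted p = 0.00044) and 0.72581 for Fancc (adjusted p = 0.00072). In each of the 4, all 3 arrays of the 24 h group lay on the same side of all 3 arrays of the 3 h group. Because this step was part of the choice of the genes, neither these adjusted p values nor this separation is further evidence.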

How the results depend on the processing

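Of 33 calls at 3 h and 38 at 24 h, 28 and 31 held in each of the 9 fits that left out 1 array, and 22 and 25 held under every alternative run. The step from 3 h to 24 h was less stable: of its 30 calls, 25 held in each of those 9 fits and 12 under every alternative. Median scaling gave 3 repair genes higher and 30 lower at 3 h, 3 and 41 at 24 h, and 6 and 27 at 24 h against 3 h, with medians of -0.5346, -1.049 and -0.3383, and it lowered the median of all genes to -0.18, -0.50 and -0.22. It turned 5 values at 24 h, to -0.1569 for Fancc, -0.4392 for Msh6, -0.2874 for Xpa, -0.1888 for Ung and -0.4499 for Tdg. Normexp with quantile normalization gave medians of -0.2455, -0.393 and -0.03601. The authors' table gave 4 genes higher at 24 h. The mean over a gene's probes turned Fancc at 24 h to -0.000528 and Atm at 24 h against 3 h to 0.05121. Slide 1 alone (2 arrays per group) gave 4 higher at 24 h and 8 lower at 24 h against 3 h. Slide 2 held 1 array per group and gave no test. Leaving out 1 array gave 4 to 7 genes higher at 24 h (4 without control replicate 3), medians of -0.5712 to -0.5293 at 24 h, and medians of -0.1514 (without Ph3h replicate 3) to -0.07422 at 24 h against 3 h. The regression on time called 39 of the 47 (83.0%, beside 67.4% of all genes), 38 with R2 above 0.7 and 28 above 0.9 (59.6%, beside 41.5%).

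Same-numbered arrays did not deviate together (r from -0.057 to 0.041 over 9 pairs), and 3 of 9 arrays correlated best with their own number. With the slide as a block, 7 genes were higher and 25 lower at 3 h, 7 and 30 at 24 h, and 11 and 18 at 24 h against 3 h. With the replicate number as a block, 7 genes were higher and 24 lower at 3 h, 7 and 29 at 24 h, and 11 and 17 at 24 h against 3 h. The cause of these changes was not tested. Brca1, Chek1 and Fancd2 exceeded background on only some arrays, which limits their values.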
